A study of Mus musculus with 15 samples.

Results

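Lmbrd1 and 7 other genes of lysosomal cobalamin export and cobalamin-dependent metabolism (Abcd4, Mmachc, Mmadhc, Mmaa, Mmab, Mtr, and Mtrr) were examined in the brain transcriptomes of mouse embryos that carry the K228E mutation of TBR1, a T-box transcription factor of cortical neurons. The genes were chosen by name as steps of one pathway, and Lmbrd1 was selected on its difference between Tbr1+/K228E and WT mice in these same embryos, so that its values are given below as a description without a test. All 8 genes were among the 19475 genes of the deposited table, and all 8 passed a filter on low values (a mean of at least 5) that left 16507 genes. RNA-Seq had been performed at E16.5 on 15 C57BL/6J embryos. WT, Tbr1+/K228E, and Tbr1K228E/K228E groups had 5 embryos each, 3 females (replicates 1 to 3) and 2 males (replicates 4 and 5). The mutation is a germline knock-in in the first exon of Tbr1, present in every cell of the mutant embryos, and its neomycin cassette had been removed with a protamine-Cre line. The labels call the tissue brain and the series calls it whole brain, whereas the study describes forebrain.

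Cobalamin, or vitamin B12, reaches cells bound to transcobalamin and is freed in the lysosome. LMBRD1, a lysosomal membrane protein, and ABCD4, an ATP-binding cassette transporter, act together to pass it into the cytosol, where MMACHC removes its upper ligand and MMADHC directs it to one of its 2 enzymes. In mitochondria, MMAA and MMAB prepare adenosylcobalamin for methylmalonyl-CoA mutase, and in the cytosol MTR (methionine synthase) uses methylcobalamin to turn homocysteine into methionine, with MTRR as its reactivating reductase. Inherited loss of these steps in humans causes methylmalonic aciduria, homocystinuria, or both, often with neurological disease.

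Promoter sequences are shown for Lmbrd1, because the difference described below is in its mRNA, and for Mmachc, because its known regulators (HCFC1, THAP11, and ZNF143) have a recognisable site and its window also held a T-box half-site. RefSeq promoter windows of GRCm38.p6, each with 250 bases before and 50 bases after a transcription start, were found for 6 of the 8 genes (9 windows), and Abcd4 and Mmadhc had none in the table used. Both strands were searched for 4 motifs that were picked after the sequences had been read, with the matches in capitals and the rest in lower case, and each window is written 5′ to 3′ on the strand of its gene.
Lmbrd1, chr1:24678294-24678593, plus strand: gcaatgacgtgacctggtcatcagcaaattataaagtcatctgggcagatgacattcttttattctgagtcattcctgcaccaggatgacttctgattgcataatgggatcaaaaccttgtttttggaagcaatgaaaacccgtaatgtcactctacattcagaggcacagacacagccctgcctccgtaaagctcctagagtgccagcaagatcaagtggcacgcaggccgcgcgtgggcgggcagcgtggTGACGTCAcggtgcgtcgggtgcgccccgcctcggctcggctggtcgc
Mmachc, chr4:116708336-116708635, minus strand: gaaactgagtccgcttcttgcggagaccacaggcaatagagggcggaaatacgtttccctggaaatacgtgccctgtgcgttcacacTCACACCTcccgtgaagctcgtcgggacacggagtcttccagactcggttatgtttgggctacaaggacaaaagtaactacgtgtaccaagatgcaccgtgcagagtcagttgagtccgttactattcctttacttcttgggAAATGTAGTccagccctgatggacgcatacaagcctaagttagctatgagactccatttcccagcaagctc
The capitals in the Lmbrd1 window mark a cAMP response element (TGACGTCA), 2 bases after the RefSeq start, a motif held by 1.79% of all 32851 windows. In the Mmachc window, the capitals mark a T-box half-site (AGGTGTGA, on the opposite strand, in 1.28% of all windows), 163 bases before the start. This half-site lies inside the annotated span of the neighbouring gene Ccdc163. The capitals also mark the core of a ZNF143/THAP11 site (ACTACANNT, on the opposite strand, in 4.16% of all windows), which lies 21 bases before the start. The same ZNF143/THAP11 core was found in the Mtr window, 191 bases before its start. The E-box of the lysosomal CLEAR element (CACGTG, in 7.15% of all windows) was not found in any of the 9 windows, and neither the second Lmbrd1 window nor the windows of Mmaa, Mmab, and Mtrr held a match to any of the 4. These matches describe letters only, and no binding was measured in these embryos.

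In WT brains, the 8 genes spanned a wide range of levels, which were compared as normalized read counts per kilobase of annotated exon. Mmadhc was highest at 678 ± 31.5 (SD, n = 5 embryos, as for all levels below), above 86.0% of tested genes. Lmbrd1 (307 ± 14.8) and Mmab (307 ± 26.6) followed, and their embryos overlapped. Mmachc lay at 216 ± 12.7, Mmaa at 107 ± 12.3, and Mtrr at 81.8 ± 3.97, each apart from its neighbours in this order. Abcd4 (57.9 ± 3.00) and Mtr (57.1 ± 7.26) were lowest and overlapped, so that the mRNA of Abcd4 was well below that of its partner Lmbrd1 per length.

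The depth of the libraries was similar across genotypes, with an estimated 26.3 to 38 M reads per embryo (M for megareads) and correlations of 0.971 to 0.988 between embryos of one genotype. Tbr1 itself, the mutated gene, averaged 3537 ± 1049 normalized read counts in WT, 6269 ± 1532 in Tbr1+/K228E, and 11366 ± 3160 in Tbr1K228E/K228E embryos. Embryos differed in the markers of other brain regions. The summed level of 17 hindbrain and spinal cord Hox genes ranged from 8.49 to 3285 in WT, from 3.00 to 3963 in Tbr1+/K228E, and from 9.07 to 576 in Tbr1K228E/K228E embryos, with medians of 395, 8.73, and 59.7 and with WT replicate 4 and Tbr1+/K228E replicate 1 highest in their groups. The list of 14 forebrain genes, all detected, includes Tbr1, and without it the summed level of the other 13 ranged from 30661 to 67115, from 44953 to 68438, and from 34929 to 67941, respectively, with medians of 46697, 52507, and 50641.

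Lmbrd1 (ENSMUSG00000073725, GRCm38 chr1:24678630-24766301, plus strand) was lower in heterozygotes. The study had called it as downregulated in these heterozygotes by RNA-Seq. Its qRT-PCR did not bear out the genes called in heterozygotes, Lmbrd1 among them, although their directions were similar. Normalized read counts of Lmbrd1 were 1896, 1817, 1795, 1712, and 1936 in WT replicates 1 to 5, and 1636, 1552, 1605, 1453, and 1609.5 in Tbr1+/K228E replicates 1 to 5. Every Tbr1+/K228E embryo lay below every WT embryo, and the spread within each group was small, with coefficients of variation of 4.80% and 4.63%. The means were 1831 ± 88.0 and 1571 ± 72.7, a difference of −14.2%. On the log2(value + 1) scale the difference was −0.22 (SE 0.047, 95% interval −0.32 to −0.12), and this is the contrast on which the gene had been selected. In females alone the difference of log2 values was −0.20 and in males alone −0.25. With every heterozygote below every WT embryo, the sign and the lack of overlap within each sex were fixed beforehand. In heterozygotes against WT, 12 of 14 tested Hox genes were below 0 (median log2 difference −1.792), where 8444 of all 16507 tested genes were. Of the 13 forebrain genes other than Tbr1, 12 were above 0 (median 0.236), where 8063 of all tested genes were. All 12 cell cycle genes (median 0.113) and 12 of 13 meningeal genes (median 0.393) were above 0 as well. So were 6 of 8 endothelial and pericyte genes (median 0.039). None of these marker genes passed the threshold after the Benjamini-Hochberg correction (limma), and their part in the difference of Lmbrd1 was not tested. In bulk tissue, fewer cells that express a gene and less RNA per cell cannot be told apart.

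Tbr1K228E/K228E embryos also had less Lmbrd1 mRNA than WT embryos, with values of 1604, 1730.5, 1537, 1577, and 1701 in replicates 1 to 5. All but 1 lay below every WT embryo, and the remaining one, replicate 2, was above WT replicate 4. The mean was 1629.7 ± 82.7, a difference of −11.0% from WT, and the log2 difference was −0.17 (SE 0.047, 95% interval −0.27 to −0.07). This comparison uses the same WT embryos as that of the heterozygotes and is not independent of it. In homozygotes against WT, 13 of 14 tested Hox genes were below 0 (median log2 difference −1.523), where 8464 of all 16507 tested genes were. Of the 13 forebrain genes other than Tbr1, 12 were above 0 (median 0.1), where 8043 of all tested genes were. Unlike in heterozygotes, 10 of 12 cell cycle genes (median −0.104) and 11 of 13 meningeal genes (median −0.764) were below 0. So were all 8 endothelial and pericyte genes (median −0.116). Their part in the lower Lmbrd1 level of homozygotes was not tested either. Within sex, homozygotes lay below WT embryos without overlap in females (−0.18, 3 against 3) and in males (−0.15, 2 against 2). In males, the sign and the lack of overlap follow from the order of all embryos given above. In females, only the place of replicate 2 was not fixed by that order. Between the 2 mutant genotypes, the embryos overlapped, and homozygotes differed from heterozygotes by 0.05 (95% interval −0.05 to 0.15), so that a second mutant copy went with no further decrease in the mean. Measured against the midpoint of WT and homozygotes, Lmbrd1 in heterozygotes was at −0.14 (95% interval −0.22 to −0.05), which again rests on the embryos that served to select it.

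**Figure D1:**
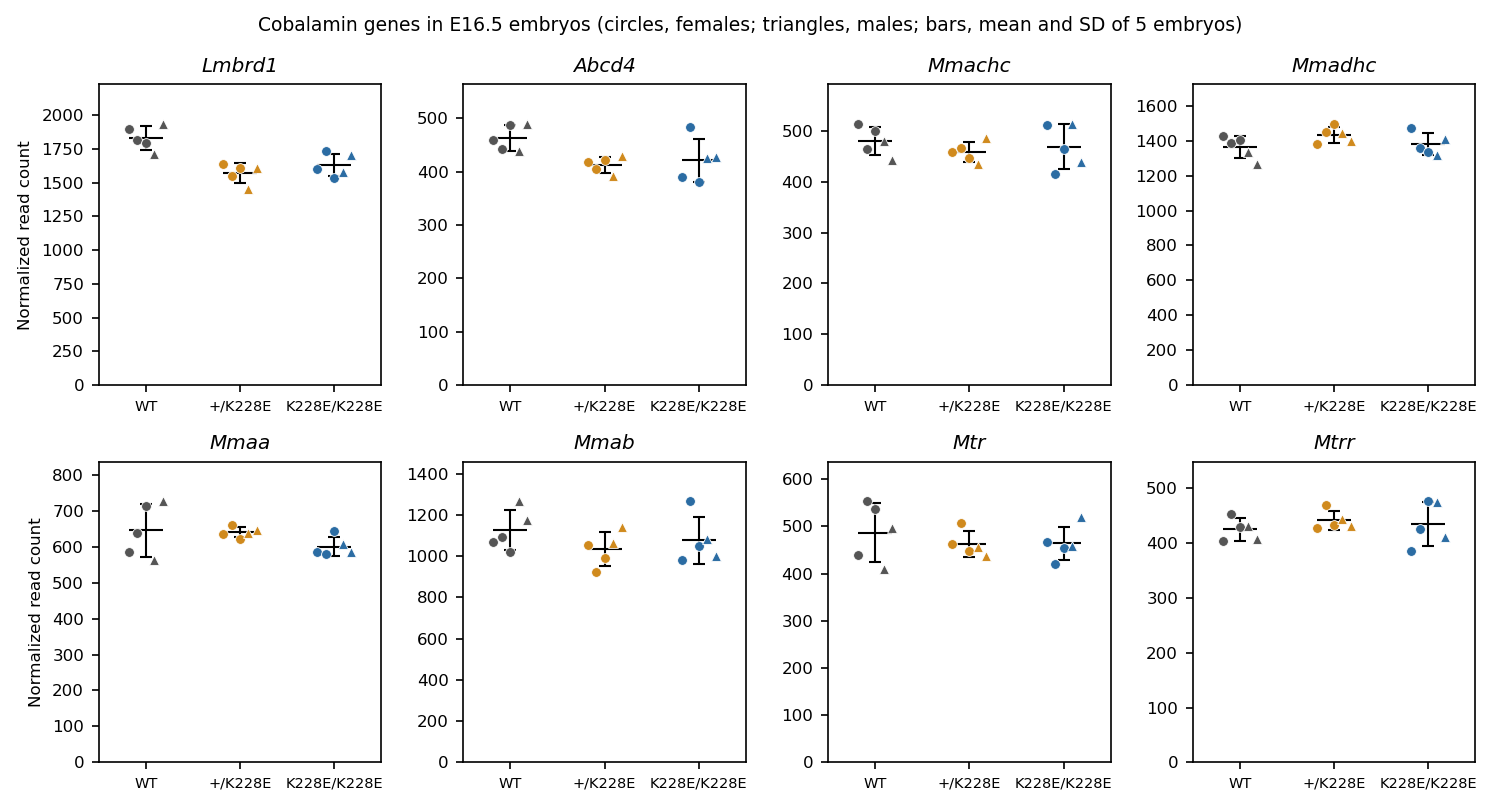
Normalized read counts of the 8 cobalamin genes (vertical axes, each from 0) in each embryo by genotype (horizontal axes), with circles for females, triangles for males, and bars for the mean and SD of 5 embryos. For Lmbrd1, the Tbr1+/K228E embryos (1453 to 1636) sit below all WT embryos (1712 to 1936), and for Abcd4 they also do (391 to 429 against 438 to 489.7), whereas the groups overlap for the other 6 genes.

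Abcd4 (ENSMUSG00000021240, chr12:84601464-84617413, minus strand), whose product works with LMBRD1, showed the same order of genotypes. Its normalized read counts were 459, 443, 487, 438, and 489.7 in WT replicates 1 to 5, 418, 405, 422, 391, and 429 in Tbr1+/K228E replicates, and 389, 483, 381, 425, and 427 in Tbr1K228E/K228E replicates. All heterozygotes lay below all WT embryos, and 4 of 5 homozygotes did, with replicate 2 again the exception. The heterozygote mean of 413 ± 14.9 differed by −10.9% from the WT mean of 463 ± 24.0, or by −0.17 on the log2 scale (SE 0.068, 95% interval −0.31 to −0.02). This difference did not pass the Benjamini-Hochberg correction over all genes (limma, adjusted p = 0.999, unadjusted p = 0.0274). A two-sided exact permutation test gave p = 0.00794, the smallest that 5 against 5 embryos allow, before any correction for the 21 comparisons made among the 7 genes other than Lmbrd1. The log2 difference was −0.16 in females and −0.18 in males. Its sign and the lack of overlap within each sex follow from the order of all embryos given above. In homozygotes the mean was 421 ± 40.5, with a log2 difference from WT of −0.14 (limma with Benjamini-Hochberg, adjusted p = 1.0; exact permutation p = 0.0794), and the mutant genotypes differed by 0.02 (95% interval −0.12 to 0.17). A setting added after the data were seen left out the embryos that held the most Hox mRNA (WT replicate 4 and Tbr1+/K228E replicate 1). The differences between heterozygotes and WT were then −0.26 for Lmbrd1 and −0.19 for Abcd4. WT replicate 4 was the lowest WT embryo for both genes (1712 and 438), and Tbr1+/K228E replicate 1 was the highest heterozygote for Lmbrd1 (1636). For Abcd4, that heterozygote (418) was above the mean of its group (413). Leaving the 2 embryos out therefore had to widen both differences, so the part of tissue makeup was not tested by this setting.

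Across the 15 embryos, Abcd4 was also the gene whose values followed those of Lmbrd1 most closely of all 16507 tested genes, as a description (Pearson r = 0.848, Spearman rho = 0.904 of log2 values). Part of this likeness is the genotype difference used to select Lmbrd1, and the points share the libraries and their normalization. With the mean of each genotype subtracted, r was 0.729, which was rank 64 of all genes. The next genes were Zfp987 (r = 0.808, mean of only 5.21 normalized read counts), Tmem260 (0.808), Dffb (0.783), and Zmynd15 (0.753). Of the other members, Mmab reached 0.375, Mtr 0.249, Mmaa 0.149, and Mmachc 0.0817, whereas Mmadhc (−0.362) and Mtrr (−0.487) were negative. With genotype means subtracted, these values were 0.114 for Mmab, 0.0855 for Mtr, 0.0589 for Mmaa, −0.299 for Mmachc, −0.0421 for Mmadhc, and −0.523 for Mtrr. Over the same embryos, the summed forebrain markers had r = −0.418 with Lmbrd1 and −0.471 with Abcd4 (−0.318 and −0.378 without Tbr1, which differs with the genotype), the Hox genes 0.305 and 0.124, 8 microglial genes 0.375 and 0.170, 13 meningeal genes 0.335 and 0.0223, and 8 endothelial and pericyte genes 0.317 and 0.0442. The part of tissue makeup in the levels of these genes was not tested.

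**Figure D2:**
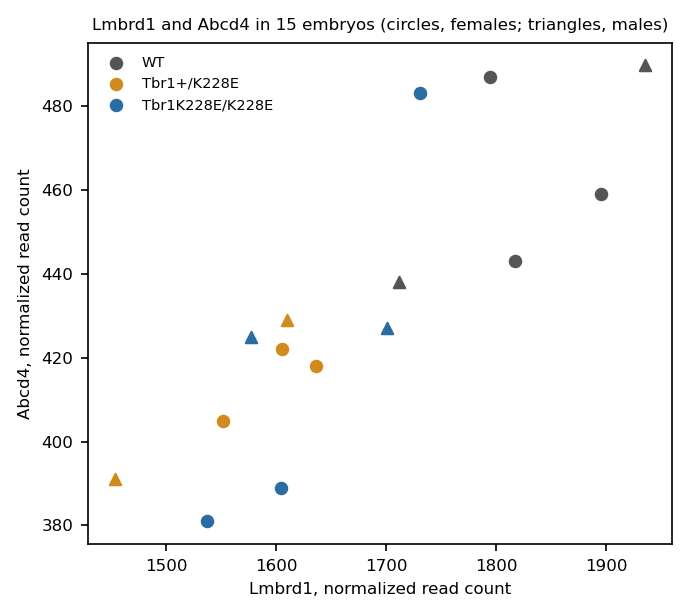
Normalized read counts of Lmbrd1 (horizontal axis) and Abcd4 (vertical axis) in the 15 embryos, coloured by genotype, with circles for females and triangles for males; both axes start above 0. The Tbr1+/K228E embryos lie at the lower left. WT embryos lie to the right of 1700, as do Tbr1K228E/K228E replicates 2 and 5 (1730.5 and 1701). Tbr1K228E/K228E replicates 3 and 1 have the lowest Abcd4 values (381 and 389). Pearson r over all embryos was 0.848 for log2 values.

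For the cytosolic carriers MMACHC and MMADHC, the genotypes overlapped in mRNA level. Mmachc (ENSMUSG00000028690, chr4:116702279-116708406, minus strand) had values of 514, 465, 499.8, 481, and 442 in WT replicates, 458, 467, 446, 435, and 485 in Tbr1+/K228E replicates, and 512, 416, 464, 514, and 439.7 in Tbr1K228E/K228E replicates. The 3 groups overlapped throughout, and the differences from WT were −0.07 (95% interval −0.21 to 0.08) in heterozygotes and −0.04 (−0.18 to 0.11) in homozygotes. Mmadhc (ENSMUSG00000026766, chr2:50279881-50296801, minus strand), which lies 11.5 Mb from Tbr1 on the same chromosome, had 1426, 1389, 1405, 1333, and 1269 in WT, 1382, 1448, 1497, 1441, and 1398 in Tbr1+/K228E, and 1475, 1359, 1337, 1319, and 1411 in Tbr1K228E/K228E replicates. In 3 heterozygotes the value exceeded every WT embryo, but the groups overlapped, and the difference was 0.07 (95% interval −0.02 to 0.16; exact permutation p = 0.0873). For homozygotes it was 0.02 (−0.08 to 0.11). Lypd6, the nearest protein-coding gene to Mmadhc in the annotation at 86312 bases, differed by −0.49 between homozygotes and WT (limma with Benjamini-Hochberg, adjusted p = 0.0102), whereas the Mmadhc interval reached no lower than −0.08.

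Among the genes of the mitochondrial branch, Mmaa (ENSMUSG00000037022, chr8:79263598-79294937, minus strand), a GTPase that guards the mutase, had values of 585, 639, 713, 562, and 727 in WT replicates, 634, 659.6, 622, 638, and 646 in Tbr1+/K228E replicates, and 585, 579.7, 644, 608, and 585 in Tbr1K228E/K228E replicates. WT embryos were the most scattered, with a coefficient of variation of 11.5% against 2.19% in heterozygotes, and all heterozygotes lay inside the WT range. The difference between heterozygotes and WT was −0.00469 (95% interval −0.15 to 0.14). Between homozygotes and heterozygotes the log2 difference was −0.09 (95% interval −0.24 to 0.05), with 4 of 5 homozygotes below every heterozygote. An exact permutation test gave p = 0.0317, before any correction for the 21 comparisons of single members. With limma, the unadjusted p was 0.195 and the adjusted p was 0.996 (Benjamini-Hochberg over all genes). Mmab (ENSMUSG00000029575, chr5:114431034-114444060, minus strand), the adenosyltransferase, ranged from 1019 to 1267 in WT, from 922 to 1142 in Tbr1+/K228E, and from 981 to 1266 in Tbr1K228E/K228E embryos. Its differences from WT were −0.12 (95% interval −0.29 to 0.05) in heterozygotes and −0.07 (−0.23 to 0.10) in homozygotes.

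Of the methionine synthase pair, Mtr (ENSMUSG00000021311, chr13:12182712-12258113, minus strand) ranged from 409.7 to 554 in WT, from 437 to 507 in Tbr1+/K228E, and from 421 to 520.1 in Tbr1K228E/K228E embryos. Both mutant groups lay within the WT range, with differences of −0.07 (95% interval −0.25 to 0.12) and −0.06 (−0.25 to 0.12). Mtrr (ENSMUSG00000034617, chr13:68560780-68582149, minus strand) ranged from 404 to 454, from 428 to 470.3, and from 385 to 477, respectively. Its differences from WT were 0.05 (−0.09 to 0.20) and 0.03 (−0.12 to 0.17). The intervals of Mtr include decreases of the size seen in Lmbrd1 and Abcd4, whereas those of Mtrr do not.

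**Figure D3:**
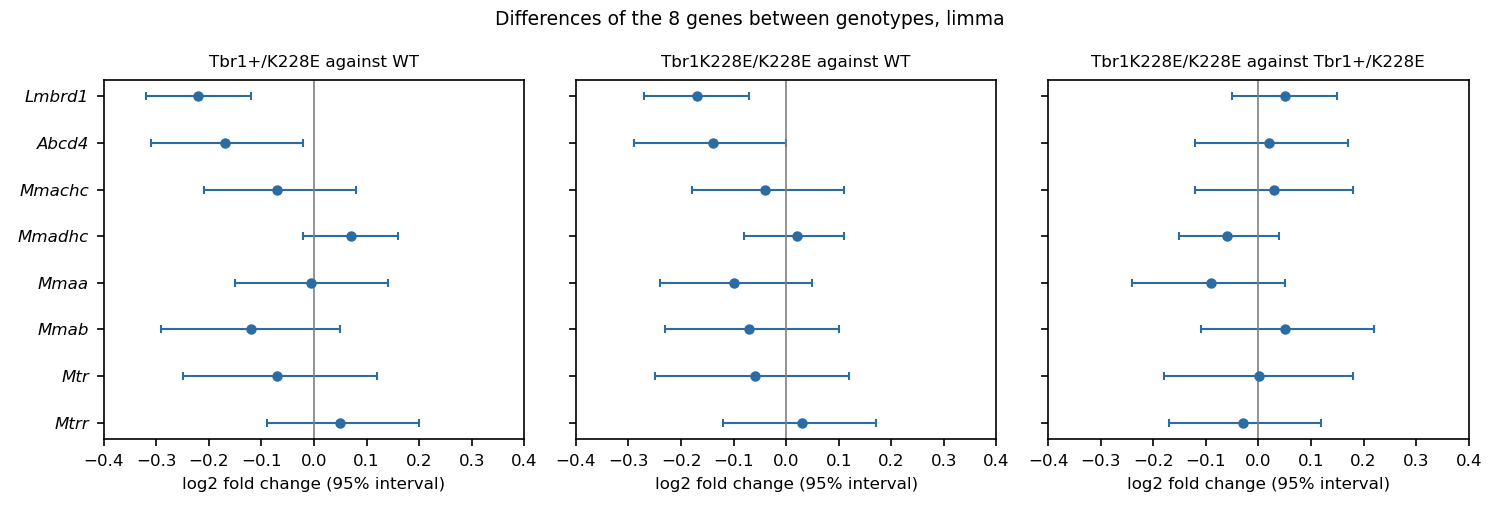
Log2 fold changes of the 8 genes with their 95% intervals (horizontal axis, limma) in the 3 comparisons between genotypes. In Tbr1+/K228E against WT embryos, Lmbrd1 (−0.22) lies farthest to the left, on the contrast that selected it and without a test, followed by Abcd4 (−0.17, not past the threshold after correction), and all 8 intervals include 0 in Tbr1K228E/K228E against Tbr1+/K228E embryos.

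None of the 7 genes other than Lmbrd1 passed the threshold of an adjusted p of 0.05 (limma with Benjamini-Hochberg over 16507 genes) in any comparison. Among all tested genes, 0% passed it for Tbr1+/K228E against WT, 0.127% for Tbr1K228E/K228E against WT, and 0.0788% for Tbr1K228E/K228E against Tbr1+/K228E embryos. At an unadjusted p below 0.05, 1 of the 7 genes other than Lmbrd1 was reached for Tbr1+/K228E against WT (Abcd4, lower), where 1.79% of all tested genes were. None of the 7 reached it for Tbr1K228E/K228E against WT (3.23% of all genes) or for Tbr1K228E/K228E against Tbr1+/K228E embryos (3.3%). Abcd4 was also the only one of the 7 without overlap between heterozygotes and WT, where 0.26% of all genes had none. In the other comparisons, 0.594% and 0.878% of all genes did not overlap between genotypes, and no member was among them. The median difference of the 7 genes was −0.066 in heterozygotes and −0.064 in homozygotes against WT, beside −0.002 over all tested genes in both. None of the 7 passed a test for a genotype difference that depends on sex. The largest such term was that of Mtr in homozygotes, a female minus male difference of −0.30 (limma with Benjamini-Hochberg, adjusted p = 0.757, unadjusted p = 0.104). That of Mmab in homozygotes, 0.27, had the smallest p (same test, adjusted p = 0.754, unadjusted p = 0.0798). Mmab differed from WT by 0.04 in female and by −0.23 in male homozygotes.

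The wider pathway gave no gene past the threshold. The lists of cobalamin binding and uptake, the methylmalonyl-CoA branch, the methionine cycle, and the folate cycle held 44 genes. Of these, 43 were in the table used and 41 were tested (Bhmt and Ftcd had means of 1.77 and 4.17). In each of the 3 comparisons, 0 rose and 0 fell past the threshold. At an unadjusted p below 0.05, 0 were higher and 1 of the 41 was lower in heterozygotes than in WT embryos, beside 1.79% of all tested genes in either direction. The median difference of the 41 genes was −0.001 in heterozygotes and −0.031 in homozygotes against WT. In each group the gene with the smallest p in heterozygotes is named next.

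Of the 6 genes listed under cobalamin binding and uptake, 5 were below 0 in heterozygotes and all 6 in homozygotes. Of all 16507 tested genes, 8444 and 8464 were. The medians of the list were −0.129 and −0.090. It also holds Abcc1, an export pump rather than an uptake gene, at −0.12 and −0.05. Lrp2, the large endocytic receptor megalin, averaged 470.5 ± 50.7 in WT and 385 ± 90.7 in Tbr1+/K228E embryos, a log2 difference of −0.31 (limma with Benjamini-Hochberg, adjusted p = 0.999), and the groups overlapped. The 7 genes of the methylmalonyl-CoA branch lay between −0.06 and 0.08 in heterozygotes, and Mut, the cobalamin-dependent mutase itself, was at −0.06. In the methionine cycle, Cbs, which removes homocysteine toward cysteine, averaged 344 ± 40.3 in WT, 278 ± 34.7 in Tbr1+/K228E, and 321 ± 66.4 in Tbr1K228E/K228E embryos. Its difference in heterozygotes was −0.31 (adjusted p = 0.999 with limma and Benjamini-Hochberg, unadjusted p = 0.0388), and the groups overlapped.

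In the folate cycle, Mthfs, which returns 5-formyltetrahydrofolate to use, averaged 76.1 ± 25.3 in WT, 94.2 ± 26.8 in Tbr1+/K228E, and 61.6 ± 6.52 in Tbr1K228E/K228E embryos. Every homozygote lay below every heterozygote, with a difference of −0.57 (limma with Benjamini-Hochberg, adjusted p = 0.996, unadjusted p = 0.0180). The widest difference in the list was that of Folr1 (1.05 in heterozygotes, values from 14.4 to 231 in WT and from 43.9 to 253 in Tbr1+/K228E embryos). Folr1 is also a marker of the choroid plexus, and the summed level of 8 choroid plexus genes ranged from 1118 to 21606 in WT and from 6209 to 25091 in Tbr1+/K228E embryos, whose part in the Folr1 values was not tested.

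**Figure D4:**
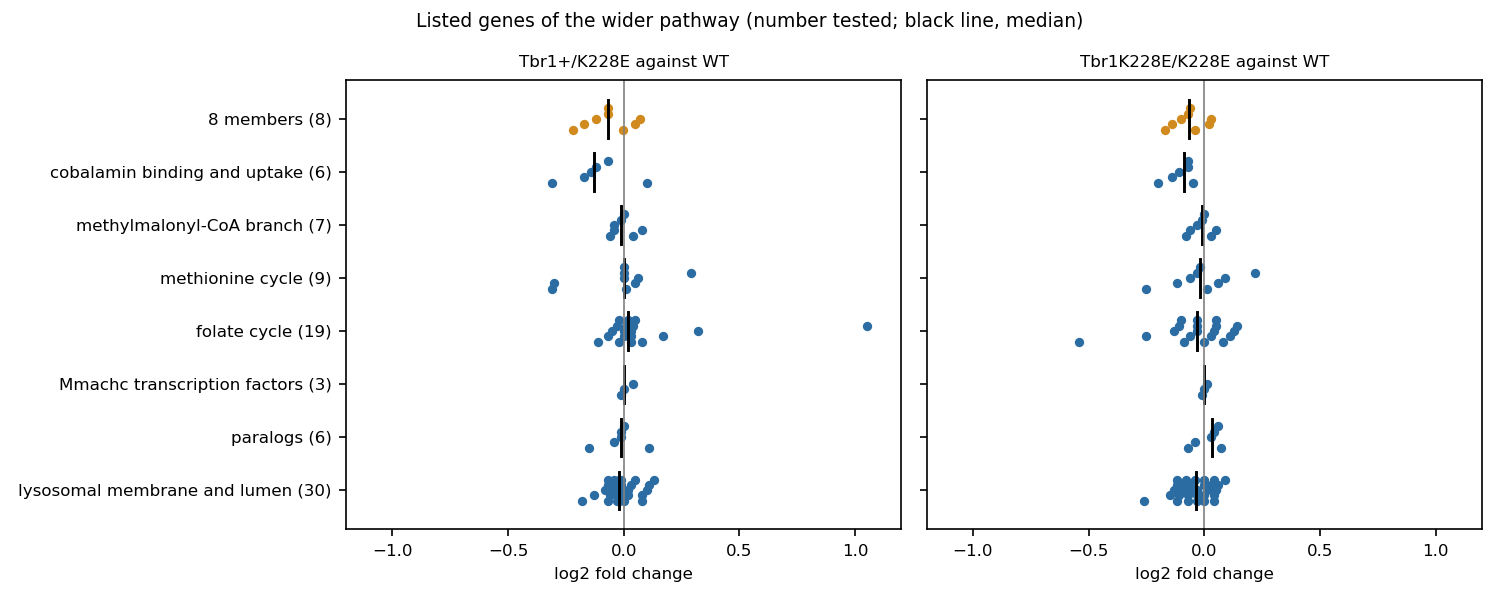
Log2 fold changes (horizontal axis) of the 8 members and of 7 lists of related genes, one point per tested gene, for Tbr1+/K228E (left) and Tbr1K228E/K228E (right) against WT embryos, with black lines for the medians. The list medians in heterozygotes lie between −0.129 (cobalamin binding and uptake) and 0.022 (folate cycle), and none of the listed genes outside the 8 members passed the threshold after correction.

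Genes that share a compartment or a family with Lmbrd1 and Abcd4 were set beside them. Of 30 lysosomal genes, 20 were below 0 in heterozygotes and 20 in homozygotes, beside 8444 and 8464 of all 16507 tested genes. Their medians were −0.020 and −0.034, and none was past the threshold. At an unadjusted p below 0.05 (limma), 2 of the 30 were lower in heterozygotes, where 1.79% of all tested genes reached it in either direction. They were the sialic acid exporter Slc17a5 (−0.18) and Sidt2 (−0.13), both named after their values were seen. None of the 30 reached it in homozygotes against WT (3.23% of all tested genes). No lysosomal gene lacked overlap between heterozygotes and WT, where 0.26% of all tested genes did. Of the paralogs of Lmbrd1 and Abcd4, Abcd2, a peroxisomal transporter, had the smallest p in heterozygotes, with a difference of −0.15 (limma with Benjamini-Hochberg, adjusted p = 0.999). The 3 known transcriptional regulators of Mmachc (Hcfc1, Thap11, and Zfp143) lay between −0.01 and 0.04, with Thap11 at 0.04.

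Within 1 Mb of Lmbrd1 on chromosome 1, 7 other protein-coding genes and 6 pseudogenes were tested, and none passed the threshold in any comparison. Col9a1, a collagen chain gene 426 kb before Lmbrd1, averaged 79.0 ± 24.6 in WT, 56.6 ± 9.77 in Tbr1+/K228E, and 45.4 ± 6.65 in Tbr1K228E/K228E embryos. All homozygotes lay below all WT embryos, with a difference of −0.75 (limma with Benjamini-Hochberg, adjusted p = 0.408, unadjusted p = 0.00117), and heterozygotes overlapped WT at −0.44 (adjusted p = 0.999). The study, which used DESeq2 and an empirical null, had counted Col9a1 among the genes that it called in these homozygotes. The nearest protein-coding neighbours, Col19a1 (91.2 kb before) and Adgrb3 (301 kb after), differed from WT in heterozygotes by 0.0 and −0.10, and B3gat2 by −0.08, with −0.19 in homozygotes (adjusted p = 1.0, unadjusted p = 0.0485). The pseudogenes lie 62.4 to 66.2 kb before Lmbrd1, and their reads may be shared with near-identical copies, so that their values are uncertain; Gm28439, for example, differed by 1.49 between homozygotes and heterozygotes (adjusted p = 0.996, limma with Benjamini-Hochberg). Lmbrd1 itself overlaps no other annotated gene, nor do the other 7 members, although the gaps are short between Mtrr and Fastkd3 (85 bases), Mmachc and Ccdc163 (103 bases), and Mmab and Mvk (209 bases). These 3 neighbours differed from WT in heterozygotes by 0.09, 0.16, and −0.07, each with an adjusted p of 0.999 (limma with Benjamini-Hochberg). The printed Mmachc window spans the gap to Ccdc163, which is read from the other strand.

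**Figure D5:**
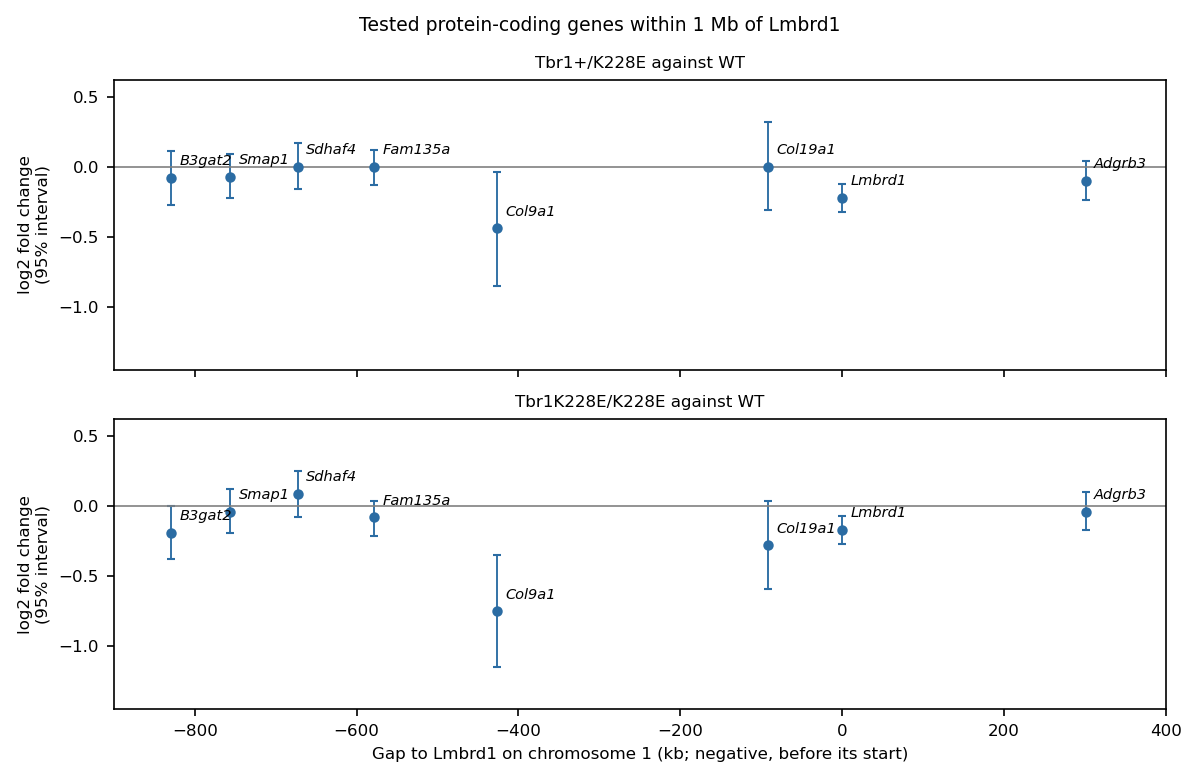
Log2 fold changes with 95% intervals (vertical axes) of the tested protein-coding genes within 1 Mb of Lmbrd1 against their gap to Lmbrd1 in kilobases (horizontal axis, 0 for Lmbrd1), for Tbr1+/K228E (top) and Tbr1K228E/K228E (bottom) against WT embryos. Col9a1 (−0.44 and −0.75) lies farthest from 0 in both.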

How the data were processed

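Genotype, replicate number, and sex of the 15 embryos came from the sample labels, and no embryo was left out. The values that the authors deposited are a normalized signal, read counts per gene divided by size factors: they ran Salmon 0.11.2 with GC bias correction on GRCm38, imported genes with tximport, and scaled them with DESeq2 1.22.2 in R 3.5.3. Whole reads could not be recovered from them, and no count model was fitted. Depth was estimated from the step of the lowest values (26.3 to 38 M reads per embryo) and limits mainly genes with low values. Of the 19475 genes, 19469 were matched to GENCODE M21 by Ensembl identifier. Log2(value + 1) was tested with limma 3.58.1 in R 4.3.3 (linear fits, with the prior variance allowed to follow the mean) on 16507 genes with a mean of at least 5, with all 15 embryos in one fit and the Benjamini-Hochberg correction over all genes; the script had been tested on simulated data. Single genes were compared by two-sided exact permutation tests (scipy 1.17.1). The study corrected its p-values with an empirical null, which was run here as an alternative on the limma statistics. The members, the gene lists, and the tests were chosen with earlier results of these data known, and motifs were added after the promoters had been read. The genes named beside the members were, in each list, those past the threshold or else that with the smallest p in heterozygotes, the genes within 1 Mb of Lmbrd1 with an unadjusted p below 0.05 in any comparison, and the 5 genes with the highest r to Lmbrd1. Folr1, Slc17a5, Sidt2, Col19a1, Adgrb3, Lypd6, Fastkd3, Ccdc163, and Mvk fall outside this rule and were named after their values were seen, as genes next to a member, as the widest difference of a list, or as those past an unadjusted p of 0.05. Marker lists of the forebrain, Hox genes, meninges, choroid plexus, microglia, endothelium and pericytes, erythroid cells, cell cycle, and astrocytes and radial glia were summed per embryo. Embryos are separate animals, but litters are not given in the sources used here. Results of some single genes of the lists are not reported here.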

Additional observations from a re-analysis of the deposited data

How the results depend on the processing

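The alternatives were other pseudocounts, filters, scalings, the compared genotypes alone, an empirical null, sex and the replicate block as terms, leaving out each embryo in turn, and, added after the data were seen, leaving out the 2 embryos with the highest Hox sums. Under all 27 alternatives, 0 genes passed the threshold for Tbr1+/K228E against WT, and none of the 7 members other than Lmbrd1 and no gene of the wider pathway passed it in the 3 comparisons between genotypes. The difference of Lmbrd1 in heterozygotes stayed between −0.26 and −0.19 and that of Abcd4 between −0.19 and −0.15. The count of all genes past the threshold moved from 21 to 12 with the 2 compared genotypes alone, to 42 with the empirical null, and to 12 to 22 without single embryos (12 or 13 without WT replicates 1 or 2 or Tbr1K228E/K228E replicates 3 or 4) for Tbr1K228E/K228E against WT, and from 13 to 2 with the replicate block and to 6 to 17 without single embryos (6 to 8 without any 1 embryo of either mutant genotype) for Tbr1K228E/K228E against Tbr1+/K228E. For heterozygotes against the midpoint it was 0, and 0 to 1 without single embryos (1 without WT replicate 3). Embryos with the same number deviated together only in part (r from −0.232 to 0.506), so that the numbers were not taken to pair them. Small differences changed sign. Mmaa in heterozygotes was at 0.000781 with upper-quartile scaling, at 0.00452 with quantile scaling, and between −0.05 and 0.04 without single embryos. Without single embryos, the differences of homozygotes from WT ranged from −0.07 to 0.00513 for Mmachc, −0.00898 to 0.03 for Mmadhc, and −0.00773 to 0.07 for Mtrr, and from heterozygotes from −0.03 to 0.06 for Abcd4, −0.00448 to 0.07 for Mmachc, −0.00678 to 0.09 for Mmab, −0.04 to 0.04 for Mtr, and −0.06 to 0.01 for Mtrr. The cause of these shifts was not tested.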

Other observations

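The marker lists whose sums were not set beside a member above gave these values. The summed level of 8 erythroid genes ranged from 28871 to 73556 in WT, from 30324 to 83272 in Tbr1+/K228E, and from 28796 to 57193 in Tbr1K228E/K228E embryos, with Pearson r = 0.139 with Lmbrd1 and −0.101 with Abcd4. For 12 cell cycle genes, r was −0.105 with Lmbrd1 and −0.311 with Abcd4, and for 10 genes of astrocytes and radial glia it was 0.172 and −0.143. Choroid plexus genes had 0.106 and −0.127. In 24 groups of 5 embryos (8 members in 3 genotypes), no embryo lay so far from the others that its gap exceeded 0.71 of the range of its group.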
